A study of Homo sapiens with 18 samples.

Results

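ZHX1, ZHX2 and ZHX3 are the 3 zinc fingers and homeoboxes genes. Their transcripts were found among the 58825 genes of the count tables by matching Ensembl identifiers to symbols, and all 3 passed the filter on low counts in every fit. They were selected on measured values, in that ZHX2 was lower with BET inhibitor (BETi) than with DMSO at 4 h and lower still at 24 h, so its values are given as a description, and since all its contrasts share those libraries, none carries a test. ZHX1 and ZHX3 entered by family name. OVCAR-3, an established high-grade serous ovarian cancer (HGSC) cell line, was kept in stripped medium and treated with DMSO vehicle, 1 µM i-BET858 or 1 µM i-BET151, each for 4 or 24 h, with 3 biological replicates in each of the 6 groups. All groups are this single line, and at each time the vehicle group differs from the treated groups by the inhibitor. The 18 poly-A libraries held 27323969 to 46299994 gene counts (median 32267434).

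ZHX proteins are nuclear factors that carry a pair of zinc fingers followed by several homeodomains. They form homodimers and heterodimers with each other and are known mainly as transcriptional repressors, first described through their binding to the A subunit of nuclear factor Y (NF-Y). ZHX2 is best known from liver, where it takes part in silencing fetal genes such as AFP after birth, and from clear cell kidney cancer, where the VHL ubiquitin ligase targets it for degradation. BETi detach bromodomain proteins of the BET family from acetylated chromatin.

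On GRCh38, ZHX2 (ENSG00000178764.8) lies on the plus strand of chromosome 8 from 122781655 to 122974510. ZHX1 (ENSG00000165156.15) lies on the minus strand of the same chromosome from 123248451 to 123275541, so that 273941 bp separate the end of ZHX2 from the start of ZHX1. ZHX3 (ENSG00000174306.21) lies on the minus strand of chromosome 20 from 41178448 to 41317731. All 3 share a layout in GENCODE 44, in that the MANE Select transcript has 4 exons and nearly the whole protein is encoded in 1 of them. ZHX2 has 1 coding exon of 2511 bp, ZHX1 has 1 of 2619 bp, and ZHX3 has 2, the longer of which holds 2860 of 2868 coding bases. No exon of ZHX2 overlaps another gene of the tables. For ZHX1, 2.72% of exonic bases overlap a readthrough transcript of the same strand with 0 to 4 counts per library, and for ZHX3, 2.29% overlap PLCG1 on the opposite strand, with 1313 to 3793 counts. The strand setting of the counting is not given in the sources used here, so reads in that PLCG1 stretch cannot be told apart.

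The markers of serous epithelium were present. Of 10 serous epithelial markers, such as PAX8 and WT1, 10 had a median above 1 CPM (gene counts relative to the TMM-scaled library total). Of 6 fibroblast markers 1 did so (COL1A1, 21.1 to 46.6 CPM), of 5 leukocyte markers 0, and of 4 endothelial markers 2 (VWF and KDR), with DCN, LUM, CD3E and CD68 at or near 0. The summed serous markers were 8641 to 10073 CPM with DMSO, 11627 to 12153 with i-BET858 and 9693 to 10293 with i-BET151 at 4 h, the last overlapping DMSO, and 8641 to 10133, 6790 to 7164 and 6784 to 7278 CPM at 24 h. The endothelial sum was 3.37 to 6.63, 9.23 to 15.9 and 4.58 to 12.4 CPM at 4 h and 3.66 to 7.04, 2.17 to 3.45 and 1.73 to 5.76 CPM at 24 h, in the same order of groups. Fibroblast sums overlapped DMSO in every treated group (21.4 to 50.8 CPM over all libraries), and leukocyte sums, at most 1.97 CPM, lay under DMSO with both drugs at 24 h. The part of these markers in the results below was not tested. CPM are shares of a library, so a loss of RNA per cell or a change in the mix of cells cannot be told apart from a change of 1 transcript. Libraries of replicate 3 had counts in 17817 to 20642 genes against 23674 to 24947 in replicates 1 and 2, and values of the members in replicates 1 and 2 alone are given beside those that this moved by over 1.5 times or across the threshold.

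ZHX2 was the most abundant family member in vehicle-treated cells and the one with the largest difference under treatment. At 4 h its level was 146, 131 and 129 CPM in DMSO replicates 1 to 3 (135 ± 9.66, SD, n = 3). With i-BET858 it was 57.3, 39.3 and 56.0 CPM (50.9 ± 10.02), which is 37.6% of the DMSO mean. With i-BET151 it was 50.1, 39.9 and 37.4 CPM (42.5 ± 6.69), or 31.4%. All treated libraries lay under all DMSO libraries in both comparisons (9 of 9 pairs each). The log2 fold change was −1.41 (SE 0.17) with i-BET858 and −1.68 (SE 0.17) for i-BET151, a 2.65-fold and a 3.19-fold lower level.

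By 24 h the gap was wider, and the vehicle libraries of both times overlapped. ZHX2 stood at 173, 164 and 133 CPM with DMSO (157 ± 20.6). With i-BET858 it stood at 21.5, 18.2 and 12.0 CPM (17.3 ± 4.83, 11.02% of the DMSO mean) and with i-BET151 at 33.9, 33.7 and 30.6 CPM (32.7 ± 1.81, 20.9%). Again no treated library reached a DMSO library, and the counts behind the lowest group, 411 to 989 reads per library, were well above detection. The log2 fold change was −3.22 (SE 0.19) with i-BET858, 9.30-fold lower, and −2.28 (SE 0.19) for i-BET151, 4.85-fold lower. Read within replicate numbers, the log2 ratios to the DMSO library of the same number were −3.00, −3.17 and −3.47 for i-BET858. For i-BET151 they were −2.35, −2.28 and −2.12. Ordered by fold change from the lowest, ZHX2 was number 729 (i-BET858) and 285 (i-BET151) of 17192 transcripts at 4 h and number 278 and 549 of 17157 at 24 h.

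From 4 to 24 h the log2 fold change of ZHX2 moved by −1.77 (SE 0.26) with i-BET858 and by −0.59 (SE 0.26) for i-BET151. Put in order of level, ZHX2 ran from DMSO at 24 h and DMSO at 4 h, whose ranges overlapped, through i-BET858 and i-BET151 at 4 h, which also overlapped, to i-BET151 and then i-BET858 at 24 h. The last 2 groups overlapped neither each other nor any group at 4 h.

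**Figure D1:**
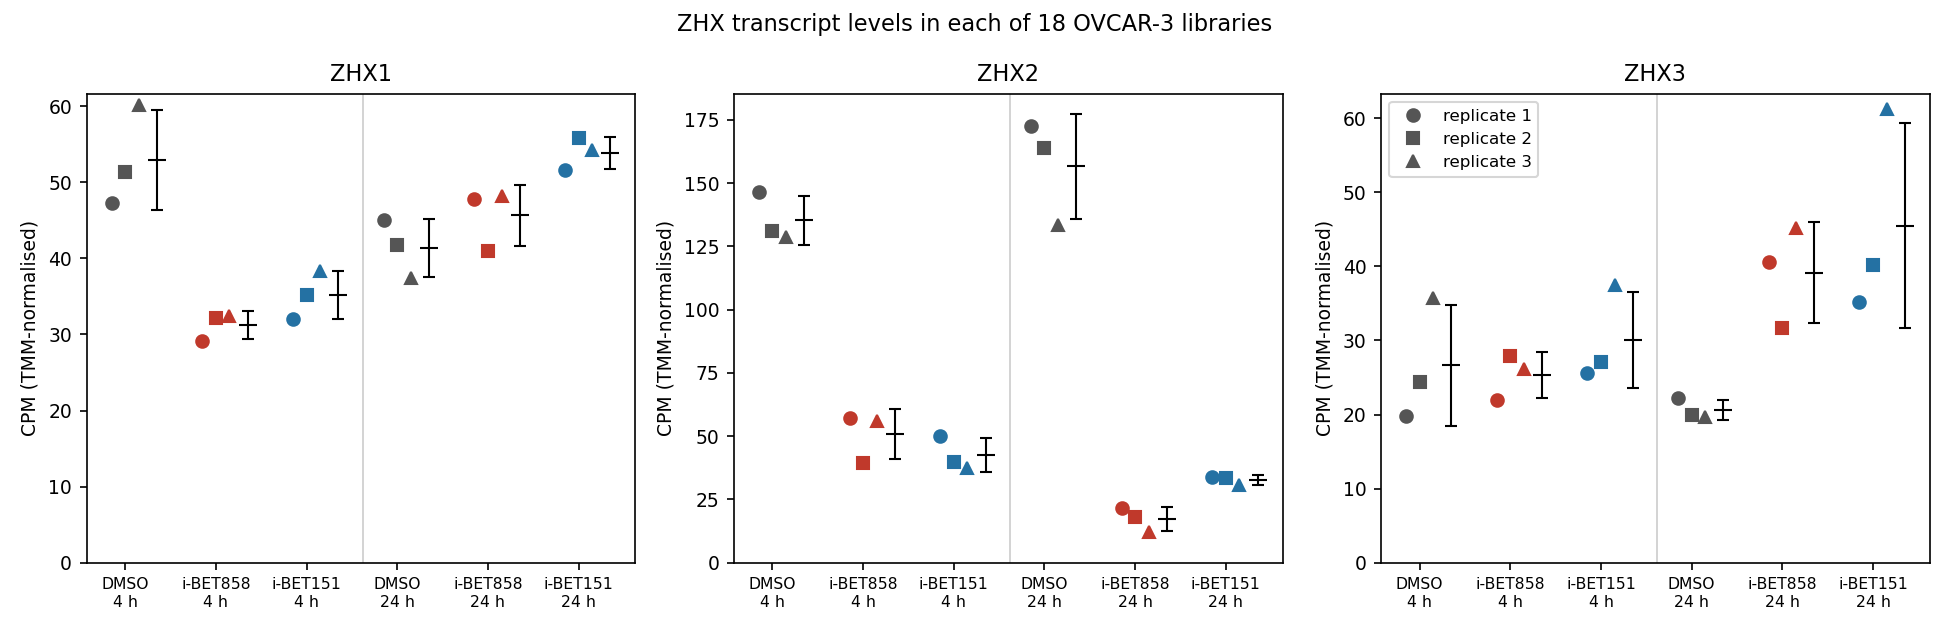
TMM-normalised CPM of ZHX1, ZHX2 and ZHX3 (y axes from 0, a scale for each gene) in the 6 groups, with 1 symbol per library, its shape giving the replicate number, and bars for the mean ± SD (n = 3). ZHX2 lies at 129 to 173 CPM in the 6 DMSO libraries and at 12.0 to 21.5 CPM with i-BET858 at 24 h, whereas ZHX3 is higher with both BETi than with DMSO at 24 h.

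ZHX1, which dimerises with the other family members and with NF-YA, fell after 4 h but not after 24 h. At 4 h it measured 47.3, 51.3 and 60.1 CPM with DMSO (52.9 ± 6.54), 29.1, 32.1 and 32.4 CPM with i-BET858 (31.2 ± 1.85) and 32.0, 35.2 and 38.3 CPM with i-BET151 (35.2 ± 3.15). Both treated groups lay wholly under the DMSO group. The transcript was down-regulated, with a log2 fold change of −0.76 with i-BET858 (SE 0.14, adjusted p = 0.00143, 1.69-fold lower) and of −0.59 with i-BET151 (SE 0.14, adjusted p = 0.0124, 1.505-fold lower). The second of these calls was lost without DMSO replicate 3 (−0.49, adjusted p = 0.0546) or without i-BET151 replicate 1 (−0.53, adjusted p = 0.0664).

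At 24 h ZHX1 measured 45.1, 41.7 and 37.4 CPM with DMSO (41.4 ± 3.83), 47.7, 41.0 and 48.2 CPM with i-BET858 (45.6 ± 4.05) and 51.6, 55.8 and 54.3 CPM with i-BET151 (53.9 ± 2.13). The i-BET858 libraries overlapped the DMSO libraries, being higher in 7 of 9 pairs, and the log2 fold change of 0.10 (SE 0.10, 95% interval −0.13 to 0.33, adjusted p = 0.475) did not pass. It was 0.0037 in replicates 1 and 2, 0.00999 with the total count as library size, and 0.064 to 0.17 with single libraries left out. The i-BET151 libraries all lay above DMSO, and ZHX1 was up-regulated by 0.36 (SE 0.10, adjusted p = 0.0223, 1.28-fold higher). This small rise was lost with the total count as library size (0.32, adjusted p = 0.0521), without a filter on low counts (0.36, adjusted p = 0.0562), and without any of DMSO replicate 2 (0.35, adjusted p = 0.0751), DMSO replicate 3 (0.31, adjusted p = 0.0557), i-BET151 replicate 2 (0.34, adjusted p = 0.0846) or i-BET151 replicate 3 (0.34, adjusted p = 0.0541).

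The change of the ZHX1 effect between the time points passed for both drugs, at 0.90 (SE 0.17, adjusted p = 6.39e-04) with i-BET858 and 0.97 (SE 0.17, adjusted p = 0.00112) for i-BET151. Both calls were kept in every alternative and with each library left out. The 2 values share the 4 h and 24 h DMSO libraries. Over all 18154 transcripts in that fit, 27.2% passed for a change of the i-BET858 effect and 13.8% for i-BET151.

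ZHX3, the longest member of the family by transcript, showed no passing change at 4 h and rose by 24 h. At 4 h it measured 19.9, 24.3 and 35.8 CPM with DMSO (26.7 ± 8.19), 22.0, 27.9 and 26.1 CPM with i-BET858 (25.3 ± 3.07) and 25.6, 27.1 and 37.4 CPM with i-BET151 (30.0 ± 6.45). The groups overlapped, and replicate 3 was the highest library with both DMSO and i-BET151. The log2 fold changes were −0.07 with i-BET858 (SE 0.22, 95% interval −0.56 to 0.42, adjusted p = 0.857) and 0.17 with i-BET151 (SE 0.22, 95% interval −0.32 to 0.66, adjusted p = 0.667). In replicates 1 and 2 alone they were 0.17 (adjusted p = 0.443) and 0.24 (adjusted p = 0.325), so that even the sign with i-BET858 at 4 h was not settled. With the total count as library size in place of TMM they were −0.23 and 0.11.

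At 24 h ZHX3 measured 22.2, 19.9 and 19.7 CPM with DMSO (20.6 ± 1.40), 40.6, 31.7 and 45.1 CPM with i-BET858 (39.1 ± 6.84) and 35.2, 40.2 and 61.2 CPM with i-BET151 (45.5 ± 13.8). Every treated library lay above every DMSO library. The transcript was up-regulated by 0.89 with i-BET858 (SE 0.20, adjusted p = 0.00525, 1.85-fold higher) and by 1.12 with i-BET151 (SE 0.21, adjusted p = 0.0018, 2.18-fold higher). The wide spread with i-BET151 came from replicate 3, at 61.2 CPM. In replicates 1 and 2 the rises were 0.75 (adjusted p = 2.82e-04) and 0.80 (adjusted p = 2.36e-04), and both calls were kept with each library left out.

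For ZHX3 the change of the i-BET858 effect between 4 and 24 h was 1.00 (SE 0.32, adjusted p = 0.0261). It was 0.59 (adjusted p = 0.0458) in replicates 1 and 2, and the call was lost without DMSO replicate 3 at 4 h (0.73, adjusted p = 0.0843), i-BET858 replicate 1 at 4 h (0.89, adjusted p = 0.0711), DMSO replicate 2 or 3 at 24 h (0.98 and 0.97, adjusted p = 0.0512 and 0.05004) or i-BET858 replicate 1 or 3 at 24 h (0.97 and 0.89, adjusted p = 0.0525 and 0.0608). The change of the i-BET151 effect was of like size, 0.97 (SE 0.32), and missed the threshold (adjusted p = 0.0506). With the replicate number as a block it was 0.91 and passed (adjusted p = 0.00522). It was 0.56 (adjusted p = 0.0772) in replicates 1 and 2. It passed without DMSO replicate 1 at 4 h (1.14, adjusted p = 0.0273), i-BET151 replicate 3 at 4 h (1.14, adjusted p = 0.0288), i-BET858 replicate 2 at 24 h (0.97, adjusted p = 0.0497) or i-BET151 replicate 1 at 24 h (1.12, adjusted p = 0.0321).

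The members' calls stood against a broad response to BETi. At 4 h, 1 of the 2 genes that entered by family name passed as lower with each drug and 0 as higher, while over all 17192 transcripts 16.3% passed as lower and 14.5% as higher with i-BET858, and 8.43% and 7.81% for i-BET151. At an unadjusted p under 0.05, and with DESeq2, the count of higher members was also 0. At 24 h, 1 of these 2 genes passed as higher with i-BET858 and 2 for i-BET151, and neither passed as lower. Of all 17157 transcripts, 20.5% were higher and 21.3% lower with i-BET858, and 17.2% and 16.6% for i-BET151. Counts over so few genes say little beside such shares, and both drugs are compared with the same DMSO libraries.

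**Figure D2:**
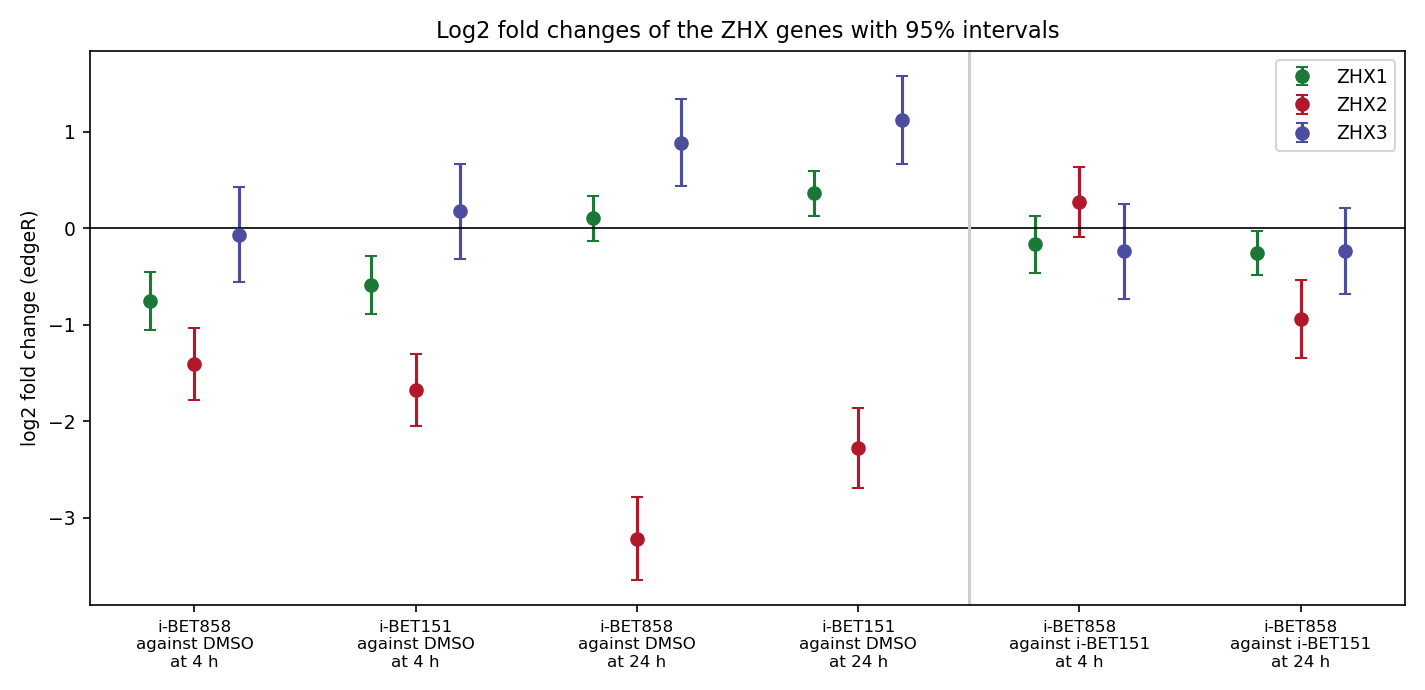
Log2 fold changes from edgeR (y axis) with 95% intervals for ZHX1, ZHX2 and ZHX3, against DMSO for each drug and time and between the drugs. ZHX2 runs from −1.41 to −3.22 with i-BET858 whereas ZHX3 runs from −0.07 to 0.89, and at 24 h ZHX2 lies at −0.94 between the drugs. ZHX2 was chosen on its values, so its intervals are no test.

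The 2 drugs were then set side by side at the matched dose of 1 µM. The paper reports growth inhibition of monolayer cultures at lower concentrations of i-BET858 than of i-BET151. It proposes that more i-BET151 should mimic the transcript changes of i-BET858. Each drug was sequenced at this dose only, so potency cannot be told apart from other differences between the drugs. For ZHX2 the difference between them is fixed by the values against DMSO on which it was chosen, and is given without a test. At 4 h ZHX2 differed by 0.27 on the log2 scale (i-BET858 minus i-BET151, SE 0.17), with 0.11 in replicates 1 and 2, 0.16 with the total count as library size and 0.17 to 0.42 with single libraries left out, and the groups overlapped. ZHX1 differed by −0.17 (95% interval −0.46 to 0.13, adjusted p = 0.734), with −0.27 by total library size and −0.24 to −0.10 with single libraries left out, the last without i-BET151 replicate 3. ZHX3 differed by −0.24 (−0.73 to 0.25, adjusted p = 0.777), which became −0.05 without i-BET151 replicate 3 (adjusted p = 0.96) and −0.07 in replicates 1 and 2. Of ZHX1 and ZHX3, 0 passed in edgeR, 0 had an unadjusted p under 0.05 and 0 passed in DESeq2, where 0.971% of all transcripts passed in edgeR. The intervals reach −0.46 for ZHX1 and −0.73 for ZHX3, so that like levels were not shown.

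At 24 h ZHX2 was lower with i-BET858, at 12.0 to 21.5 CPM, than with i-BET151, at 30.6 to 33.9 CPM, with no overlap. The difference was −0.94 (SE 0.18), 1.92-fold. It was −0.97 with the replicate number as a block and −0.75 in replicates 1 and 2, and ranged from −1.13 to −0.73 with each library left out in turn. ZHX1 differed by −0.26 (95% interval −0.49 to −0.03, unadjusted p = 0.0327, adjusted p = 0.378) and did not pass. ZHX3 differed by −0.24 (−0.68 to 0.21, adjusted p = 0.761), with −0.05 in replicates 1 and 2. Of ZHX1 and ZHX3, 0 passed in edgeR, 1 had an unadjusted p under 0.05 and 0 passed in DESeq2. Few transcripts passed in edgeR, 36 of 17157 or 0.21%.

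A comparison added after the data were seen asked whether this difference between the drugs changed from 4 to 24 h. For ZHX2 it moved by −1.18 (SE 0.26), likewise given without a test. The values were −0.07 (adjusted p = 0.987) for ZHX1, with −0.13 in replicates 1 and 2, and 0.03 (adjusted p = 0.999) for ZHX3, where 0.143% of transcripts passed.

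In vehicle-treated cells ZHX1 and ZHX3 did not pass for a change between 4 and 24 h, and ZHX2 differed by 0.21 (SE 0.18) with overlapping groups. ZHX1 differed by −0.35 (95% interval −0.60 to −0.10, unadjusted p = 0.00792, adjusted p = 0.3), with −0.18 in replicates 1 and 2. ZHX3 differed by −0.37 (−0.84 to 0.10, adjusted p = 0.709), with −0.10 without DMSO replicate 3 at 4 h and −0.07 in replicates 1 and 2. Of ZHX1 and ZHX3, 0 passed in edgeR, 1 had an unadjusted p under 0.05 and 0 passed in DESeq2, beside 7 of 18154 transcripts, or 0.0386%, in edgeR. ZHX1 was nevertheless higher in all 3 DMSO libraries at 4 h, at 47.3 to 60.1 CPM, than in those at 24 h, at 37.4 to 45.1 CPM, and its treated groups are each read against their own DMSO group.

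To compare levels between the genes, CPM were divided by the length of all annotated exons of the gene, 4453 bp for ZHX2, 6733 bp for ZHX1 and 11680 bp for ZHX3. With DMSO, ZHX2 stood at 30.4 ± 2.17 CPM per kb at 4 h and 35.2 ± 4.62 at 24 h (SD, n = 3), ZHX1 at 7.86 ± 0.97 and 6.15 ± 0.57, and ZHX3 at 2.28 ± 0.70 and 1.76 ± 0.12. This order, ZHX2 over ZHX1 over ZHX3, held in every DMSO library and in every treated library at 4 h. ZHX2 made up 75.0% ± 4.18 of the summed family level at 4 h and 81.6% ± 0.93 at 24 h with DMSO.

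After 24 h of BETi the order was another one. With i-BET858, ZHX1 led at 6.78 ± 0.60 CPM per kb, while ZHX2 (2.70 to 4.83) and ZHX3 (2.71 to 3.86) overlapped. With i-BET151, ZHX1 (7.66 to 8.28) lay just above ZHX2 (6.88 to 7.61), and ZHX3 stood at 3.90 ± 1.18. ZHX2 then made up 27.6% ± 6.87 of the family level with i-BET858 and 38.3% ± 3.84 for i-BET151, and ZHX3 23.9% ± 3.74 and 20.1% ± 5.13. The summed level was 43.1 ± 5.27 CPM per kb with DMSO, 14.0 ± 1.28 with i-BET858 and 19.2 ± 0.95 for i-BET151. Dividing by the length of the MANE Select transcript instead (4361, 4899 and 10074 bp), a choice made after the data were seen, put ZHX1 at 9.31 and ZHX2 at 3.96 with i-BET858, and at 10.99 and 7.503 for i-BET151, with ZHX3 at 3.89 and 4.52, and so kept ZHX1 in the lead.

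**Figure D3:**
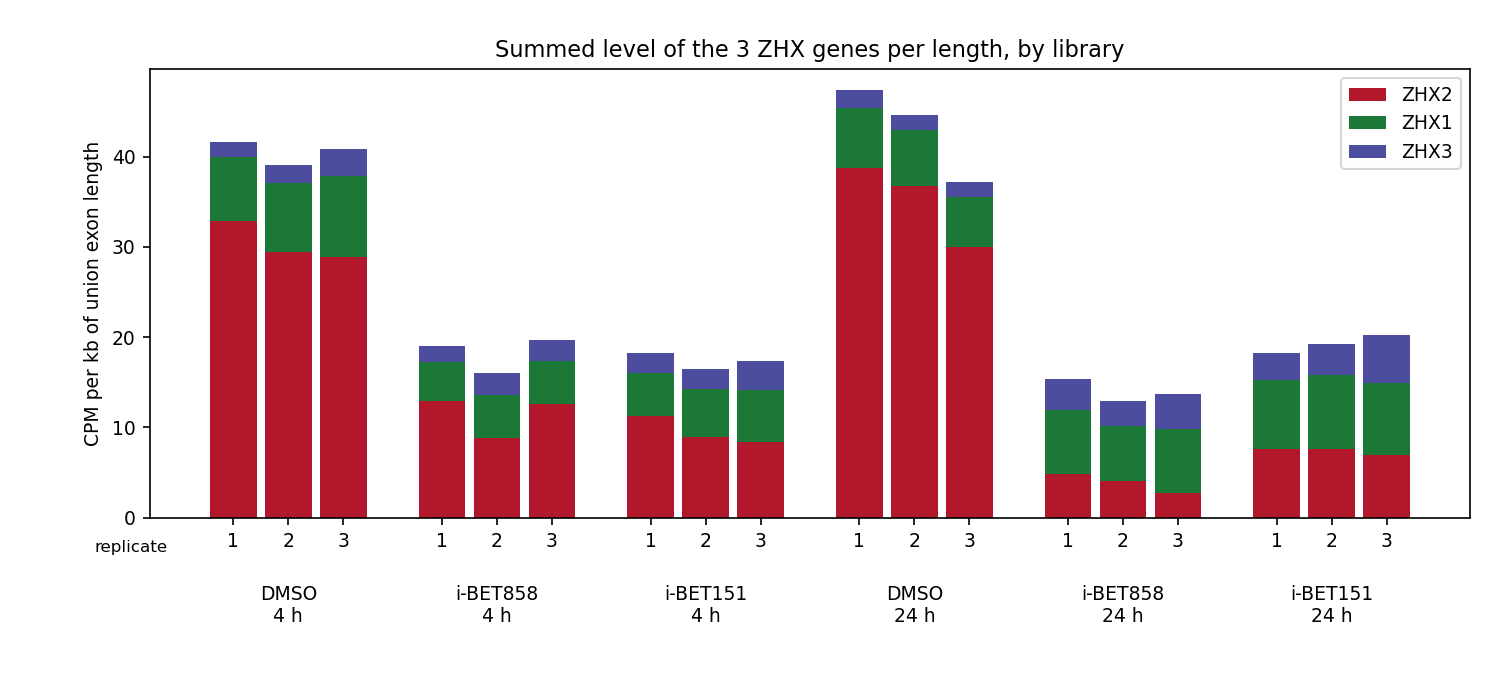
CPM per kb of annotated exon length (y axis from 0) of the 3 genes, stacked in each of the 18 libraries and ordered by group and replicate. The summed bars stand at 43.1 CPM per kb on average with DMSO at 24 h and at 14.0 with i-BET858, and ZHX2, the largest part of each DMSO bar, is no longer so after 24 h of either drug.

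The other zinc finger homeobox genes did not share one pattern. Of 11 listed relatives 10 were matched in the tables and 7 passed the filter on low counts, with HOMEZ, the nearest relative of the family, not matched to an identifier and not analysed here. ZEB1, ZEB2 and TSHZ3 were at or near 0. At 4 h, 4 of 7 passed as lower and 0 as higher with i-BET858 (median log2 fold change −0.77, against 0.02 over all transcripts), and 2 of 7 as lower with i-BET151 (median −0.47 against 0.01). With the replicate number as a block, 4 passed as lower with each drug and 1 as higher with i-BET858. Of all transcripts, 16.3% and 8.43% passed as lower and 14.5% and 7.81% as higher at 4 h, and 21.3% and 16.6% as lower and 20.5% and 17.2% as higher at 24 h. At 24 h, 1 of 7 passed as lower with i-BET858 and 0 in either direction with i-BET151 in edgeR, where 1 had an unadjusted p under 0.05, 1 passed with the block and 0 passed in DESeq2. The block gave 2 with i-BET858. These 24 h counts lie at or under the shares of the whole table.

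ADNP, a chromatin factor needed for brain development, fell at 4 h, with log2 fold changes of −1.28 (SE 0.11, adjusted p = 8.43e-06) with i-BET858 and −0.93 (adjusted p = 1.84e-04) for i-BET151. Its values at 24 h were −0.14 and −0.17 (adjusted p = 0.389 and 0.33). The value for i-BET151 at 24 h was −0.22 in replicates 1 and 2 and passed there (adjusted p = 0.0227). ZFHX4, a large factor with many zinc fingers and homeodomains, fell at 4 h, with values of −1.36 (SE 0.21, adjusted p = 5.62e-04) and −1.08 (adjusted p = 0.00512), with 0.01 and −0.01 at 24 h. ZFHX3 fell with i-BET858 at 4 h (−1.002, SE 0.30, adjusted p = 0.024), and with i-BET151 its value was close to that (−0.92, SE 0.30) and missed the threshold in edgeR (adjusted p = 0.0576) but passed with the replicate block (adjusted p = 4.38e-04) and in DESeq2 (adjusted p = 0.0144). With i-BET858 at 4 h these 3, ADNP2 (−0.77, SE 0.22, adjusted p = 0.018) and ZHX1 were lower than with DMSO. TSHZ1, ZFHX2 and TSHZ2 stood at 0.02, 0.33 and 0.58 there, and ZHX3 at −0.07. TSHZ2 was the one relative lower at 24 h with i-BET858 (−1.81, SE 0.44, adjusted p = 0.00692), from 3.69 to 1.08 CPM. Its value for i-BET151 was −0.74 (adjusted p = 0.212), but in replicates 1 and 2 it was −1.33 and passed (adjusted p = 0.00289). At 4 h with i-BET858 it stood at 0.58, which passed with the block (adjusted p = 0.0797 without and 0.0311 with it).

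Genes whose proteins bind or control ZHX factors moved in both directions. All 10 passed the filter. At 4 h, 2 of 10 passed as higher and 1 as lower with i-BET858, and 2 and 2 for i-BET151, and at 24 h 4 of 10 passed as higher and 1 as lower with each drug. Over all transcripts, 14.5% and 7.81% passed as higher and 16.3% and 8.43% as lower at 4 h, near the shares of this list with i-BET858, and 20.5% and 17.2% as higher and 21.3% and 16.6% as lower at 24 h. The medians were −0.19 and 0.09 at 4 h and 0.39 and 0.30 at 24 h, where those of all transcripts lay between −0.01 and 0.02. With the replicate number as a block, 6 passed instead of 3 with i-BET858 at 4 h and 8 instead of 5 at 24 h. The shares of all transcripts, here and for the other lists, are from the fit without the block. Counts with the block therefore have no matching share beside them.

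DNMT3B, a de novo DNA methyltransferase known to bind ZHX1, was up-regulated in all 4 comparisons, by 1.77 (SE 0.16, adjusted p = 1.62e-05) and 1.46 (adjusted p = 1.62e-04) at 4 h with i-BET858 and i-BET151 and by 1.20 (adjusted p = 8.94e-06) and 1.07 (adjusted p = 3.21e-05) at 24 h. EFNB1, an ephrin whose intracellular part binds ZHX2 in neural progenitors, rose likewise, by 1.76 (SE 0.12, adjusted p = 2.64e-06) and 1.21 at 4 h and by 0.62 and 0.81 at 24 h. Of the oxygen-sensing prolyl hydroxylases that act upstream of VHL, EGLN3 fell at 24 h, with values of −1.17 (SE 0.09, adjusted p = 6.22e-06) and −1.30 (SE 0.09, adjusted p = 6.8e-06). It also fell at 4 h with i-BET151 (−0.86, SE 0.21, adjusted p = 0.0156), with −0.22 (adjusted p = 0.455) for i-BET858. EGLN1 rose at 24 h by 0.62 and 0.71 (adjusted p = 0.00177 and 0.00108). VHL itself did not pass in edgeR at 24 h, with 0.45 and 0.52 (adjusted p = 0.0824 and 0.0556), but passed as higher with the replicate block (0.48 and 0.55, adjusted p = 0.0041 and 0.00211) and, for i-BET151, in DESeq2 (adjusted p = 0.0393). At 4 h it stood at 0.04 and 0.34 (adjusted p = 0.881 and 0.158), the second of which passed with the block (adjusted p = 0.034). The block also called EGLN1 higher (0.35, adjusted p = 0.0268) and NFYA lower (−0.34, adjusted p = 0.0399) with i-BET858 at 4 h. RELA was likewise called lower there (−0.54, adjusted p = 8.12e-04), and NFYB lower with i-BET151 at 4 h (−0.30, adjusted p = 0.0408). At 24 h the block called RELA higher with i-BET858 (0.24, adjusted p = 0.0285). It called NFYB lower with i-BET858 and i-BET151 at 24 h (−0.44 and −0.42, adjusted p = 0.00204 and 0.00336). NFYC fell at 4 h, with values of −1.19 (SE 0.14, adjusted p = 1.04e-04) with i-BET858 and −0.51 (adjusted p = 0.0297) for i-BET151, whereas NFYA rose at 24 h by 0.57 and 0.44 (adjusted p = 0.00146 and 0.0093).

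Of 6 genes known from liver or liver cancer cells as repressed by ZHX2, 1 passed as higher and 0 as lower with each drug at 4 h. At 24 h, of 5 tested, 1 passed as higher with each drug, and 1 as lower with i-BET858 and 2 for i-BET151. Of all transcripts, 14.5% and 7.81% passed as higher at 4 h and 20.5% and 17.2% at 24 h, where 21.3% and 16.6% passed as lower, so that 1 of 5 is close to the share of the whole table. The medians at 4 h, 0.42 and 0.16, lay above those of all transcripts (0.02 and 0.01), and those at 24 h, 0.00 and −0.22, near or under them (−0.01 and 0.00). GPC3, a fetal glypican of liver, was the member that rose at 24 h, by 2.28 (SE 0.26, adjusted p = 5.49e-05) and 2.43 (SE 0.26, adjusted p = 6.24e-05), from 1.13 CPM with DMSO to 5.65 and 6.22 CPM. AFP was barely detected, at no more than 38 counts in any library, and passed the filter on low counts of the edgeR fit only at 4 h, where its change did not pass. At 24 h it passed the filter in replicates 1 and 2 alone and was lower with both drugs there (−1.76 and −3.11, adjusted p = 0.0237 and 0.00334), but did not pass in DESeq2 (adjusted p = 0.404 and 0.38).

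CCNE1, the cyclin that drives entry into S phase, rose at 4 h by 1.22 (SE 0.15, adjusted p = 1.21e-04) and 0.74 (adjusted p = 0.00636) and was lower at 24 h with i-BET858 (−0.51, adjusted p = 0.00258), with −0.22 (adjusted p = 0.126, and 0.0399 with the block) for i-BET151. The fetal long noncoding RNA H19 fell at 24 h with i-BET151 (−1.35, SE 0.41, adjusted p = 0.0282). With i-BET858 it stood at −0.99 (SE 0.41) and missed the threshold in edgeR (adjusted p = 0.0746), but passed with the block (adjusted p = 0.00507) and in DESeq2 (adjusted p = 0.0419). LPL, lipoprotein lipase, also fell at 24 h with i-BET151 (−0.97, SE 0.33, adjusted p = 0.0456), with 0.10 (adjusted p = 0.832) for i-BET858. At 4 h with i-BET858 LPL went the other way, to 1.14 (SE 0.43), which did not pass in edgeR (adjusted p = 0.0659) but did with the block (adjusted p = 0.00642) and in DESeq2 (adjusted p = 0.0249). CCNA2, the S and G2 phase cyclin, stayed within −0.11 and 0.00 without passing.

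The genes beside the ZHX genes were examined for like changes. Of 16 protein-coding neighbours, the 3 nearest on each side of each member that do not overlap it, 15 passed the filter. PLCG1, which overlaps ZHX3, and the readthrough transcript of ZHX1 are thus not among them. At 4 h, 2 of 15 passed as higher and 4 as lower with i-BET858, and 1 and 1 for i-BET151 (5 in all with the replicate number as a block). At 24 h, 3 were higher and 6 lower with i-BET858, and 2 and 5 for i-BET151. Over all transcripts, 14.5% and 7.81% passed as higher and 16.3% and 8.43% as lower at 4 h, and 20.5% and 17.2% as higher and 21.3% and 16.6% as lower at 24 h. The 4 h counts, apart from the 4 lower with i-BET858, were close to these shares. The medians lay between −0.18 and −0.04.

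DERL1, which encodes an endoplasmic reticulum protein and is the gene nearest to ZHX2 at 38660 bp, was singled out after its values were seen, and did not pass in any comparison in edgeR (−0.26 to −0.14, adjusted p = 0.114 to 0.461), but with the replicate block it was lower with i-BET858 at 4 h (adjusted p = 0.0264). TBC1D31, a centrosomal protein gene that lies between ZHX2 and ZHX1, did not pass either. SNTB1, a syntrophin gene 1968382 bp from ZHX2 on the other side, fell at 24 h, with values of −2.22 (SE 0.34, adjusted p = 3.74e-04) and −1.22 (SE 0.32, adjusted p = 0.0138). At 4 h it stood at −0.48 and −0.36 (adjusted p = 0.362 and 0.562) and passed as lower only with the block and in replicates 1 and 2 (adjusted p = 0.00607 and 0.0184 with the block). MTBP, an MDM2 binding protein gene next to it, fell in all 4 comparisons, with −1.34 and −0.68 at 4 h and −0.86 and −0.62 at 24 h (adjusted p = 5.25e-04 to 0.04). FAM83A fell at 24 h to 0.15 and 0.0691 CPM from 1.87 CPM (adjusted p = 0.0108 and 0.00578), which is 2 to 9 and 0 to 6 counts per library. The DMSO libraries at 24 h were themselves widely spread, with 20 to 116 counts. On chromosome 20, DHX35, an RNA helicase gene 2138725 bp from ZHX3, fell at 4 h with i-BET858 (−2.03, SE 0.33, adjusted p = 7.37e-04), with −0.98 for i-BET151 (adjusted p = 0.0579, and 3.33e-04 with the block), and with both drugs at 24 h (−0.93 and −0.80, adjusted p = 0.00139 and 0.00451), where ZHX3 rose.

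**Figure D4:**
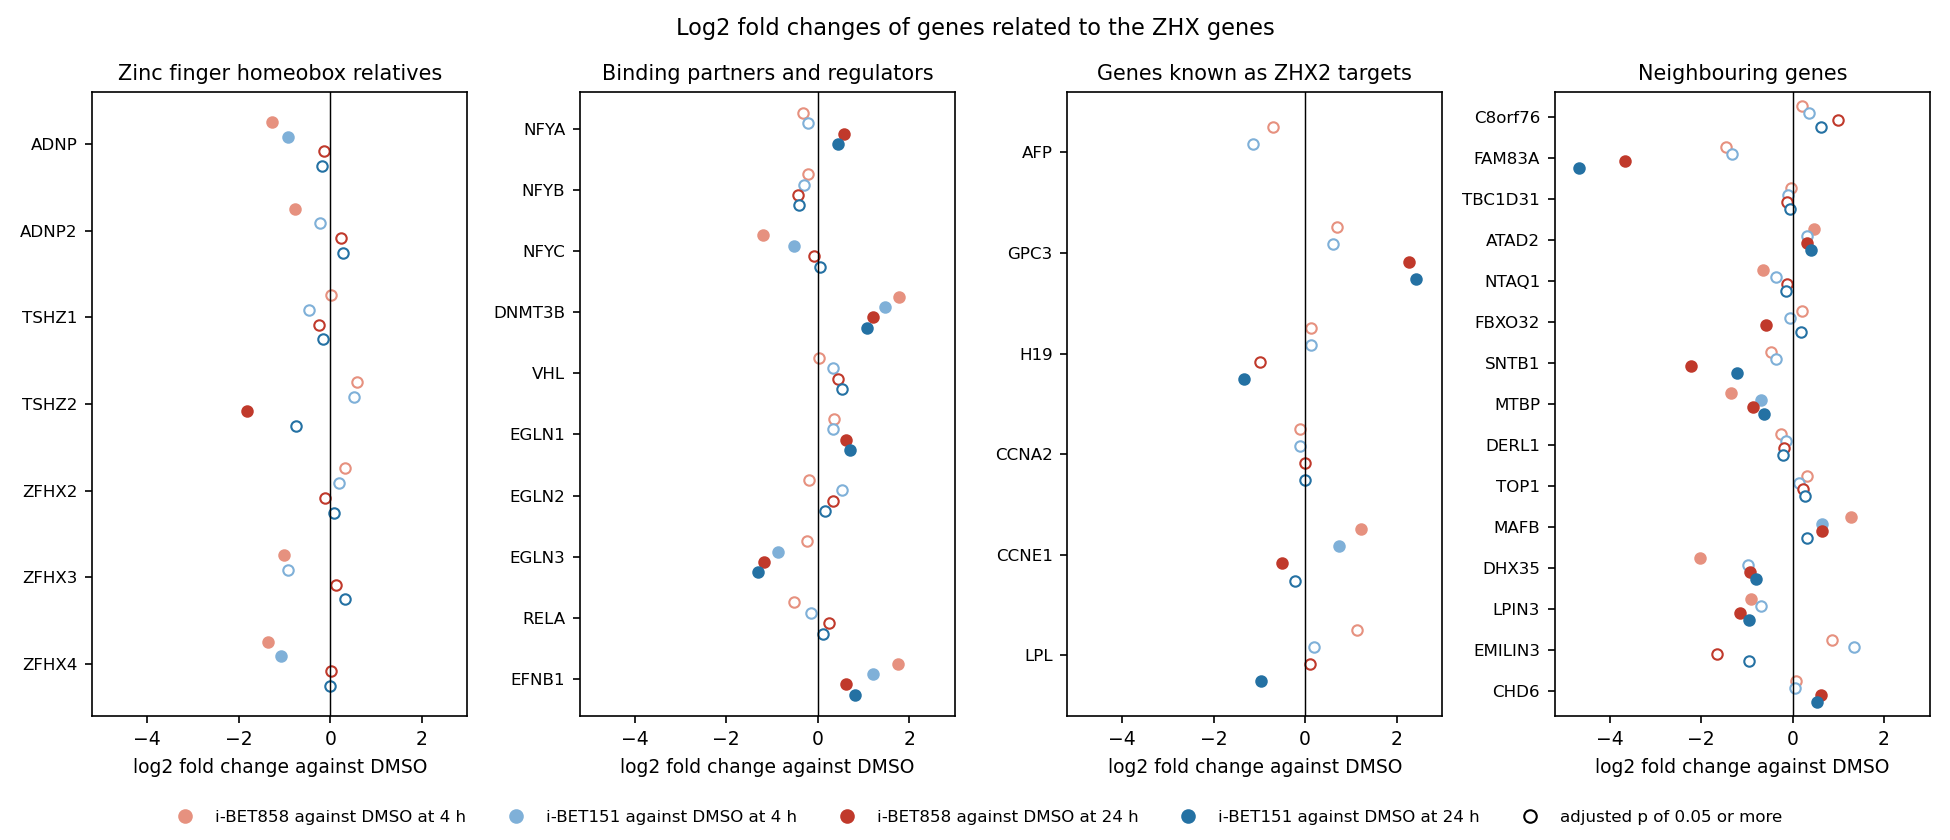
Log2 fold changes against DMSO (x axes) of the tested zinc finger homeobox relatives, partners and regulators, known targets of ZHX2 and neighbouring genes, with 1 point per comparison and filled points for an adjusted p under 0.05. DNMT3B and EFNB1 are filled and positive in all 4 comparisons, ADNP and ZFHX4 are filled only at 4 h, and GPC3 only at 24 h.

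Last, the 3 transcripts most like each member were sought among 9717 others whose log2 CPM averaged 3 or more, by Pearson's r of log2 CPM over the 18 libraries. The libraries share their groups and their replicate numbers, so these values describe the pattern over 6 conditions and carry no test. ZHX2 was most like TBL1XR1, a subunit of the NCoR corepressor complex (r = 0.990), XPOT, the exportin for tRNA (r = 0.966), and RARG, the retinoic acid receptor gamma (r = 0.966). TBL1XR1 stood at 277 and 276 CPM with DMSO at 4 and 24 h, at 139 and 136 CPM with i-BET858 and i-BET151 at 4 h, and at 73.2 and 109 CPM at 24 h, the same order of groups at 24 h as ZHX2.

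ZHX1 was most like PHIP, a bromodomain and WD repeat protein (r = 0.957), and N4BP2 (r = 0.943) was also among its 3. PHIP stood at 81.9 CPM with DMSO and 36.8 and 49.7 CPM with the drugs at 4 h, and at 67.1, 71.8 and 76.5 CPM at 24 h. ZHX3 was most like MYCBP2, a very large ubiquitin ligase (r = 0.952), MTOR, the growth-controlling kinase (r = 0.937), and MICAL3, an actin-regulating oxidoreductase (r = 0.934). MYCBP2 stood at 26.4, 25.3 and 29.4 CPM at 4 h and at 19.4, 60.3 and 57.9 CPM at 24 h with DMSO, i-BET858 and i-BET151. Among the members themselves, r was 0.02 between ZHX1 and ZHX2 (Spearman's rho −0.20), 0.51 between ZHX1 and ZHX3 (rho 0.51) and −0.72 between ZHX2 and ZHX3 (rho −0.85).

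**Figure D5:**
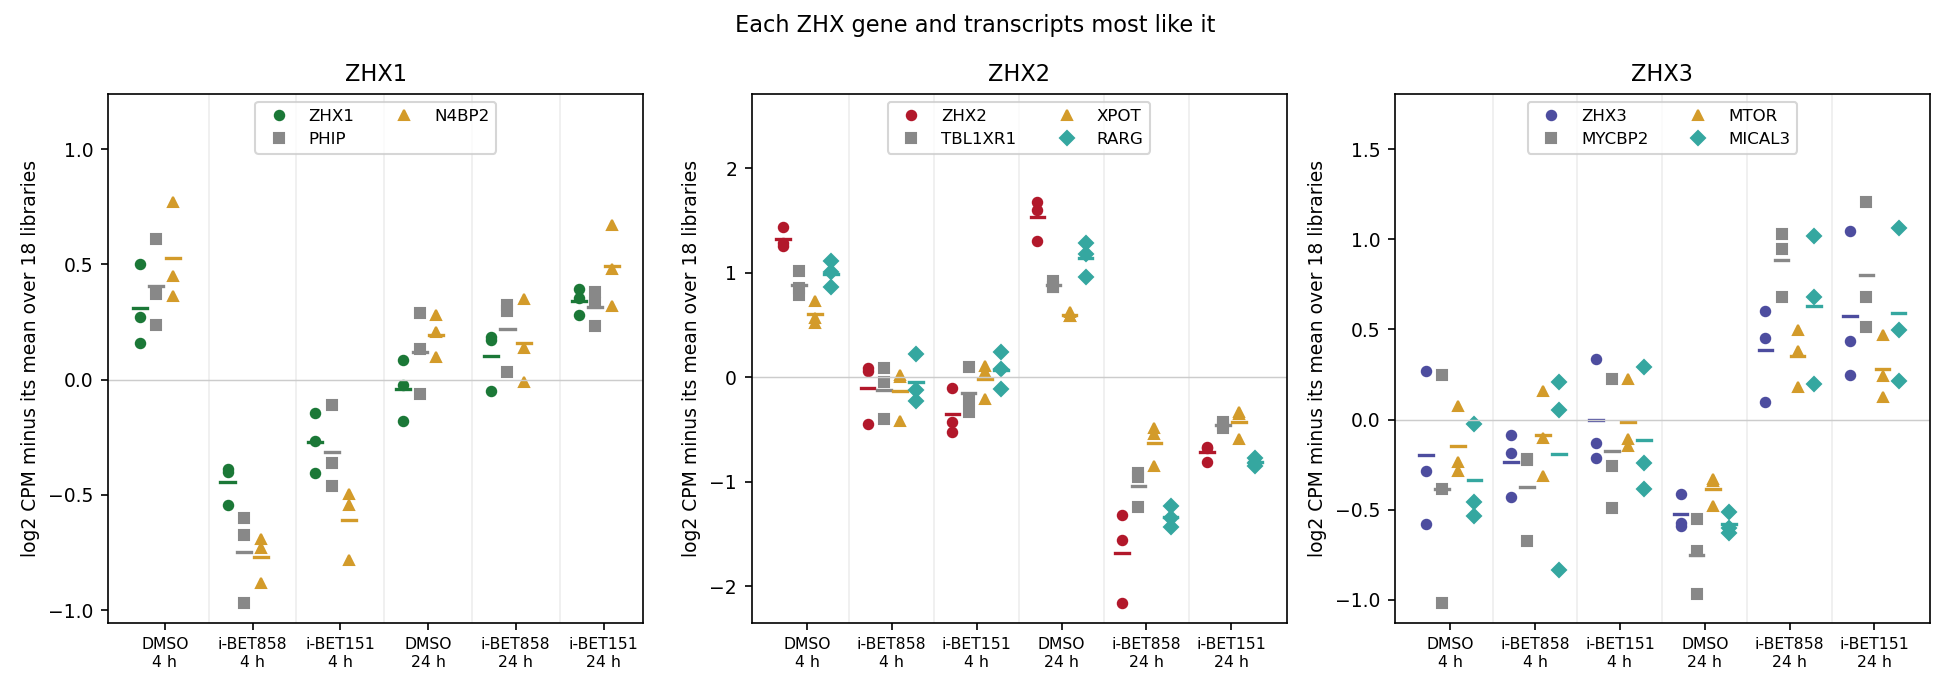
Log2 CPM minus its mean over the 18 libraries (y axes, a scale for each panel) for each ZHX gene and transcripts among the 3 with the highest Pearson's r (2 for ZHX1, 3 for ZHX2 and ZHX3), with 1 symbol per library and a bar for the mean of each group. The 3 panels show 3 patterns, in that the treated libraries of ZHX2 step down at 4 h and again at 24 h, those of ZHX1 are low at 4 h, and those of ZHX3 are high at 24 h, where its DMSO libraries are the lowest group.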

How the data were processed

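The authors deposited raw read counts per gene, which had not been normalized. Per the paper's methods, poly-A libraries were sequenced as paired-end reads, aligned to GRCh38 with STAR and counted on genes by the same program, and the authors tested with DESeq2. The annotation and the strand setting are not given in the sources used here. The columns of the 2 count tables name treatment and replicate, and the time point was taken from the table. Of 58825 identifiers 58472 (99.4%) matched GENCODE 44 of the same build.

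Counts were tested with edgeR 4.0.16 in R 4.3.3 (TMM, edgeR's filter on low counts by group, quasi-likelihood test), with the 9 libraries of a time point in 1 fit and all 18 libraries for comparisons across time. Benjamini-Hochberg adjustment ran over all transcripts tested, and passing means an adjusted p under 0.05. A count of 0 allows up to 3 counts, 0.0648 to 0.11 CPM, for counting error only. The test was tried on simulated counts first.

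ZHX2 was fitted in every comparison, but since it was chosen on its values, its p-values are not given. The members and the lists of relatives, partners, targets, neighbours and markers were chosen with earlier results of these data known. Named from each list are up to 4 genes that passed in at least 1 comparison with DMSO, by the largest log2 fold change, with others named for context. Likeness used log2 CPM with a prior count of 2, and 1 transcript that the rule named is not reported here. Alternatives were DESeq2 1.42.0, edgeR with size factors from DESeq2, edgeR with the total count as library size, edgeR on unfiltered genes or on genes with 10 or more counts in each library, only the groups compared, all 18 libraries, replicates 1 and 2 alone, each library left out and the replicate number as a block. For the lists, a fold change of at least 2 was also required. After group means were removed, libraries of the same replicate number correlated across transcripts at 0.125 to 0.344 at 4 h and 0.145 to 0.33 at 24 h, all above 0.1, and the numbers were taken to pair the libraries on that ground alone. Those of other numbers correlated at −0.311 to 0.216 and −0.304 to 0.285. Some pairs of other numbers thus lay within the range of the same numbers. Unless the block is named, the tests given here had no term for the replicate number and so left this pairing out. Several calls differed with the block, as given above.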

Additional observations from a re-analysis of the deposited data

Results flagged for a closer look

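The effects of a drug at 4 h and at 24 h were compared by the drug-by-time term of edgeR in the fit of all 18 libraries, and 4 values stood out. For ZHX1 the effect of i-BET858 changed by 0.90 and that of i-BET151 by 0.97 on the log2 scale, from lower at 4 h to near or above DMSO at 24 h (adjusted p = 6.39e-04 and 0.00112, each with the drug's libraries lower than DMSO in 9 of 9 pairs at 4 h and in 2 and 0 of 9 pairs at 24 h). For ZHX3 the effect of i-BET858 changed by 1.00 (adjusted p = 0.0261), with treated libraries higher in 5 of 9 pairs at 4 h and in 9 of 9 at 24 h. For ZHX2 the effect of i-BET858 changed by −1.77, a value that led to the choice of this gene and is given without a test. No group of 3 libraries could be examined for a single outlying library by the criterion used here.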

How the results depend on the processing

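Among the 246 values of the members under another setting with all or fixed replicates, 239 kept their direction and, where tested, their side of the threshold. ZHX1 with i-BET151 at 24 h (0.36) was 0.32 with total library size and 0.36 without a low-count filter, and no longer passed. The change of the i-BET151 effect on ZHX3 (0.97) passed at 0.94 in DESeq2, 0.97 with total library size, 0.97 without the filter and 0.91 with the block. ZHX3 with i-BET858 at 4 h (−0.07) turned to 0.17 in replicates 1 and 2. The block changed no other call of ZHX1 or ZHX3, and ZHX2 carries no test. By total library size, ZHX1 with i-BET858 at 4 h stood at 28.9 instead of 31.2 CPM, more than 1 SD away. The causes were not tested.

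With single libraries left out, values ranged from −0.66 to −0.49 for ZHX1 with i-BET151 at 4 h and from 0.31 to 0.42 at 24 h, from −1.81 to −1.59 for ZHX2 with i-BET151 at 4 h (−1.81 without i-BET151 replicate 1), from −0.25 to 0.19 and −0.0195 to 0.44 for ZHX3 with i-BET858 and i-BET151 at 4 h, from −0.38 to 0.0613 for ZHX3 between the drugs at 24 h, from 0.73 to 1.17 and 0.70 to 1.14 for the changes of its effects, and from −0.12 to 0.0068, −1.38 to −0.98 and −0.15 to 0.30 for the change between the drugs in ZHX1, ZHX2 and ZHX3. The sign of ZHX3 with i-BET858 at 4 h turned without DMSO replicate 3 (0.19) or i-BET858 replicate 1 (0.03), with i-BET151 at 4 h without DMSO replicate 1 (−0.00095) or i-BET151 replicate 3 (−0.0195), and between the drugs at 24 h without i-BET151 replicate 3 (0.0613), none of which passed.

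List counts moved by over 1.5 times in 26 of 64 cases. Passing relatives (2, 1 and 0 with i-BET151 at 4 h, i-BET858 and i-BET151 at 24 h) were 4, 2 and 1 with the block, 2 and 3 at 24 h in replicates 1 and 2, and 1 with i-BET151 at 4 h with a 2-fold criterion. Passing partners (3 and 5 with i-BET858) were 6 and 8 with the block and 8 at 24 h in replicates 1 and 2, and the 2-fold criterion left 2 of 4 with i-BET151 at 4 h and 2 of 5 with each drug at 24 h. Passing targets of i-BET858 at 4 h (1) were 2 in DESeq2, with the block and in replicates 1 and 2, those at 24 h (2 and 3) were 4 and 5 in replicates 1 and 2, and the 2-fold criterion left 0 with i-BET151 at 4 h and 1 with i-BET858 at 24 h. Passing neighbours of i-BET151 at 4 h (2) were 4 in DESeq2, 5 with the block and 5 in replicates 1 and 2, and the 2-fold criterion left 3 and 0 at 4 h and 3 and 2 at 24 h. MANE Select length moved 8 of 18 levels per kb by over 1 SD. Depth limits the least abundant list genes, such as AFP with at most 38 counts in any library, more than ZHX2 with 411 to 5699.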
